A study of Mus musculus with 12 samples.

Results

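The 9 genes described here serve lipid transport and storage in myeloid cells. Apoe, Abca1 and Abcg1 carry cholesterol out of the cell, and Nr1h3 encodes a sterol-sensing transcription factor that switches these genes on. Trem2 and Lpl sense and digest lipid at the cell surface, and Fabp5, Plin2 and Soat1 bind, coat or esterify lipid inside. They were taken by symbol from the deposited expression table, which held all 9 among its 23420 gene symbols.

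The cells came from mouse epidermis and were collected by flow cytometry, 100 to a tube, in a gate for CD45+CD3-CD11b+MHCII+. Langerhans cells, the resident antigen-presenting cells of the epidermis, fall in this gate, which does not use langerin and so can hold other myeloid cells. The 4 groups were Cbfβ2 knockout at 1.5 months of age (1.5M KO), wild type at 1.5 months (1.5M wt), Cbfβ2 knockout at day 5 after birth (P5 KO) and wild type at day 5 (P5 wt), with 3 libraries each. Cbfβ2 is a protein form made by alternative splicing of Cbfb, whose product binds Runx transcription factors as their partner. The labels give no strain, sex or allele, no source of the knockout in time or cell type, and call the libraries of a group separate preparations, so p-values measure a spread that may be technical.

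Myeloid cells take up lipoproteins and the lipids of dead cells, free the cholesterol in lysosomes, and either store it as esters in droplets or export it. When sterols build up, liver X receptors such as that encoded by Nr1h3 induce the efflux transporters and apolipoprotein E, which accepts the exported cholesterol. Langerhans cells live among keratinocytes, which make and shed large amounts of lipid for the skin barrier.

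Values are scaled molecule counts: the authors' counts set to the same total of 37092 in every library. Libraries of 1.5M KO held 74620 to 77419 molecules and those of 1.5M wt 40254 to 51848, while P5 KO had 30913 to 51001 and P5 wt 34192 to 52208. The detection limit for a gene counted at 0 was taken as 3 molecules over the group. On the scaled count this is 0.485 for 1.5M KO, 0.831 for 1.5M wt, 0.907 for P5 KO, and for P5 wt 0.895, and it covers counting error only. Among transcripts of the gate, the MHC class II gene H2-Ab1 averaged 247 in KO and 547 in wt at 1.5M. At P5 H2-Ab1 averaged 106 in KO and 171 in wt. Itgam was above 0 in every library and Cd3e at 0 in all 12, while Cd3d had 1.2 in P5 KO library 3. Keratinocyte and erythroid transcripts were counted too, with the highest sums in P5 KO, as given below. At 1.5M, Cbfb averaged 1.77 ± 0.712 in KO and 10.5 ± 3.34 in wt, and at P5 2.5 ± 1.09 in KO and 4.41 ± 0.536 in wt (SD, n = 3). A count per gene does not separate its splice forms. In sorted pools, fewer cells of a type and less RNA per cell cannot be told apart.

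The stretches upstream of Apoe and Trem2 are shown because these are the secreted carrier and the lipid receptor whose transcripts differed in opposite directions in 1.5M KO. Each is the 250 bases before the annotated start in RefSeq (GRCm38.p6, the assembly of mm10), 5′ to 3′ on the gene's strand. Capitals mark GAGGAA, a core recognised by the myeloid factor PU.1, and AGGTCA, an element bound by nuclear receptors such as liver X receptors, on either strand. For Apoe the most upstream of 3 listed starts is shown, chr7:19699189-19699438 on the minus strand. The full span of Apoe in the RefSeq gene table, given with its values, reaches further upstream, so this stretch lies within it. For Trem2 the stretch is chr17:48346151-48346400 on the plus strand.
Apoe: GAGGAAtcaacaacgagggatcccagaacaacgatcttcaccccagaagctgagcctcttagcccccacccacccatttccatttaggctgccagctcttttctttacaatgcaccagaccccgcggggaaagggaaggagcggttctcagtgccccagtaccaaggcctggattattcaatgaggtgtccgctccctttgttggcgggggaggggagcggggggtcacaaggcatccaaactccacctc
Trem2: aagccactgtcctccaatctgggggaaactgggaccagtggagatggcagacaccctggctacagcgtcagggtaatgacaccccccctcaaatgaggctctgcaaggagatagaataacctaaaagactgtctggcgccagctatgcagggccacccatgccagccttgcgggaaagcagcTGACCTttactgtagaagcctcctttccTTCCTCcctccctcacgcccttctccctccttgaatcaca

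Across 9 such windows of 6 member genes (Soat1, Nr1h3, Abca1, Plin2, Apoe and Trem2), GAGGAA was present in 3, belonging to Apoe and Trem2, against 23.3% of all 32851 windows in the table. AGGTCA was found in 2, those of Plin2 and Trem2, against 14% of all windows. TGTGGT, a sequence bound by Runx factors and the only one searched for them, was in 0 of the 9 windows, against 14% of all. The full liver X receptor repeat, 2 copies of AGGTCA in 1 direction with any 4 bases between, was in 0 of 9, against 0.0152%. The searches covered both strands, and a match or its absence says only which letters stand in these windows.

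Apoe was far lower in 1.5M KO than in any other group. Apoe (chromosome 7, 19696244 to 19701310) had 2.88, 5.47 and 4.31 scaled counts in the 3 libraries of 1.5M KO, and 35.9, 24.3 and 32.0 in those of 1.5M wt. It had 55.4, 64.0 and 69.6 in P5 KO and 14.2, 48.8 and 34.2 in P5 wt. The 1.5M KO libraries lay below all 9 others, and the P5 KO libraries above all 9 others. The P5 wt libraries spread over a range that held all 3 of 1.5M wt.

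In the fit across all genes (limma with Benjamini-Hochberg adjustment over 10023 genes), Apoe fell in 1.5M KO against 1.5M wt, with a log2 fold change of −2.62 (SE 0.32, adjusted p = 6.46e-06), its mean being 0.137 times that of 1.5M wt. It also fell in 1.5M KO against P5 KO, by 3.64 on the log2 scale (SE 0.32, adjusted p = 3.84e-07). At P5 the knockout libraries were higher without overlap, at a mean 1.94 times that of P5 wt, but the difference did not pass the threshold of 0.05 (log2 fold change 1.09, SE 0.32, adjusted p = 0.0931). It passed in 4 of 25 alternatives, among them voom (adjusted p = 0.0026) and leaving out P5 wt library 2 (0.0357). In wild type Apoe did not differ detectably between the ages (0.07, SE 0.32, adjusted p = 0.964). The knockout effect differed between the ages by −3.71 (SE 0.45, adjusted p = 2.59e-05).

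**Figure D1:**
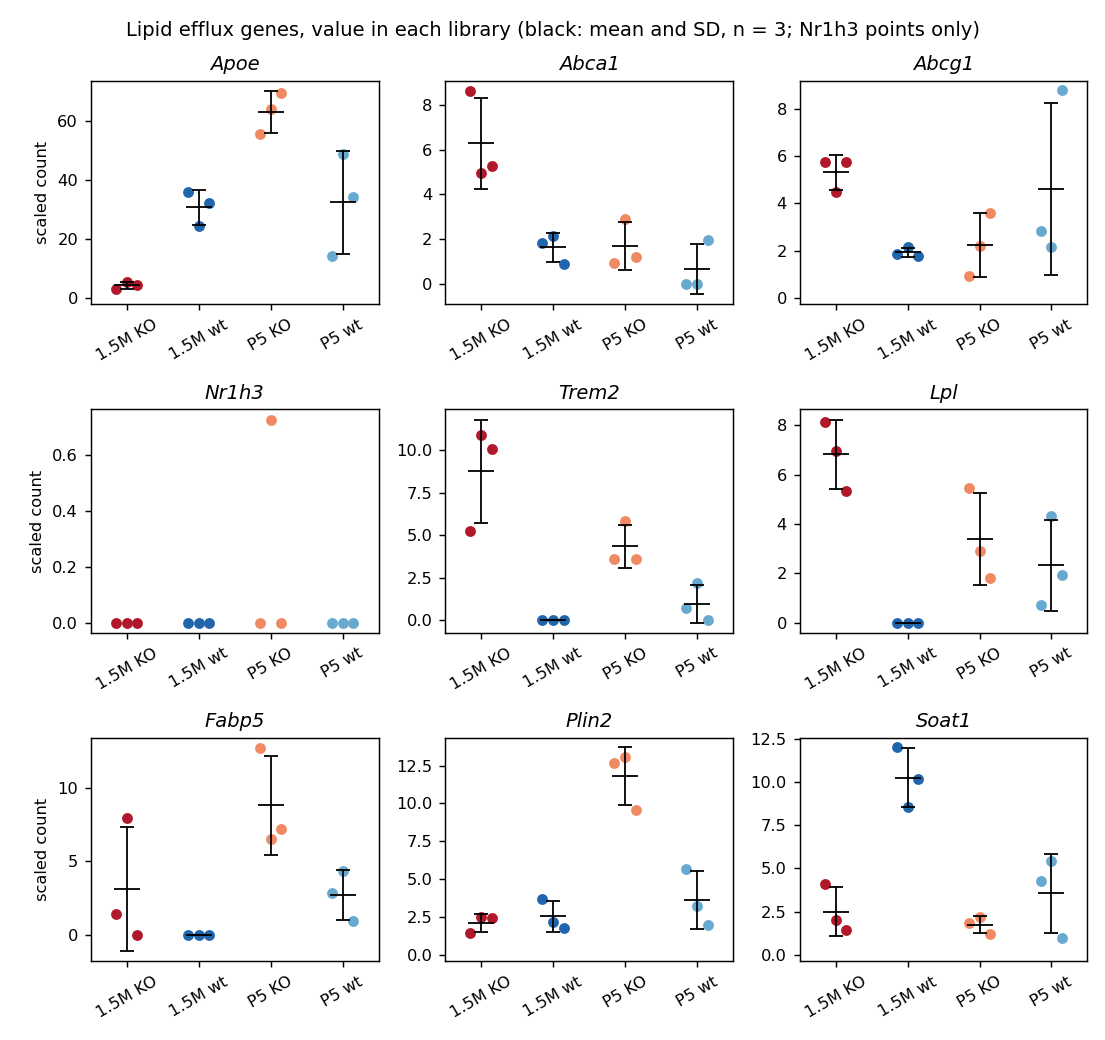
Scaled count of each of the 9 genes (vertical axes) in every library of the 4 groups (horizontal axes), with the mean and SD of 3 libraries in black except for Nr1h3. Apoe is lowest in the 1.5M KO libraries at 2.88 to 5.47, while Trem2 and Lpl are at 0 in all 1.5M wt libraries.

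The transporters that load cholesterol onto apolipoproteins were low throughout. Abca1, which lipidates free apolipoproteins (chromosome 4, 53030789 to 53159988), had 8.63, 4.97 and 5.27 in 1.5M KO and 1.84, 2.15 and 0.888 in 1.5M wt. It had 0.908, 2.91 and 1.20 in P5 KO and 0, 0 and 1.95 in P5 wt. All 1.5M KO libraries stood above all others, but neither the contrast with 1.5M wt (log2 fold change 1.47, SE 0.50, adjusted p = 0.102) nor that with P5 KO (1.49, SE 0.50, adjusted p = 0.124) passed the threshold in limma. With a pseudocount of 10 both passed (adjusted p = 0.0174 and 0.0275), and the first also with array weights (0.0381) and in a fit of only its 6 libraries (0.0375). The remaining groups overlapped.

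Abcg1 exports cholesterol to lipoprotein particles (chromosome 17, 31057694 to 31117984). It had 5.75, 4.47 and 5.75 in 1.5M KO, 1.84, 2.15 and 1.78 in 1.5M wt, 0.908, 2.18 and 3.60 in P5 KO, and 2.84, 2.17 and 8.79 in P5 wt. The 1.5M KO libraries lay above those of 1.5M wt and of P5 KO, and the range of P5 wt, widened by its library 3, held all 3 libraries of 1.5M KO. For Abcg1, 1.5M KO against 1.5M wt did not pass in limma (1.11, SE 0.45, adjusted p = 0.206), except in a fit of only those 6 libraries with genes at 0 in all of them kept (0.0257), and the other contrasts did not pass. For the receptor gene Nr1h3 itself, 1 molecule was counted in the whole series, in P5 KO library 2, so it was not tested, and no difference was detectable at this depth. Nr1h2, which encodes the other liver X receptor, had 2.43 ± 0.0513 in KO and 5.57 ± 1.34 in wt at 1.5M, and 3.37 ± 1.88 in KO and 2.08 ± 0.115 in wt at P5 (SD, n = 3). It passed in no comparison by limma.

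Trem2 and Lpl were counted in every 1.5M KO library and in none of 1.5M wt. Trem2, a receptor for lipids and apolipoproteins (chromosome 17, 48346401 to 48352276), had 5.27, 10.9 and 10.1 in 1.5M KO, 0 in all of 1.5M wt, 3.63, 5.82 and 3.60 in P5 KO, and 0.71, 2.17 and 0 in P5 wt. Knockout and wild type did not overlap at either age. Trem2 rose in 1.5M KO against 1.5M wt (log2 fold change 3.23, SE 0.47, adjusted p = 6.43e-05) and was at least 10.5-fold higher, set against 3 molecules over the 1.5M wt group. At P5 the difference of 1.58 (SE 0.47) missed the threshold (adjusted p = 0.0978), and the knockout effects at the 2 ages were not shown to differ (1.65, SE 0.66, adjusted p = 0.258).

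Lpl encodes lipoprotein lipase, which frees fatty acids from lipoproteins (chromosome 8, 68880555 to 68906932). It had 8.15, 6.96 and 5.34 in 1.5M KO, 0 in all of 1.5M wt, 5.45, 2.91 and 1.80 in P5 KO, and 0.71, 4.34 and 1.95 in P5 wt. Knockout and wild type overlapped at P5 (0.46, SE 0.47, adjusted p = 0.743). At 1.5M Lpl rose in the knockout (2.95, SE 0.47, adjusted p = 0.000198) and was at least 8.2-fold higher. The contrast of 1.5M wt with P5 wt (−1.58, SE 0.47, adjusted p = 0.0509) and the difference between the knockout effects (2.49, SE 0.66, adjusted p = 0.0535) just missed the threshold. Leaving out P5 wt library 1 brought these to adjusted p = 0.0233 and 0.0242, and P5 KO library 1 to 0.0481 and 0.0405. Without P5 KO library 3 the first was 0.0439.

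Of the 3 genes of binding, coating and esterification inside the cell, Fabp5 and Plin2 averaged highest in P5 KO, and Soat1 in 1.5M wt. Fabp5, a fatty acid binding protein abundant in epidermis (chromosome 3, 10012585 to 10016610), had 1.44, 7.95 and 0 in 1.5M KO, 0 in all of 1.5M wt, 12.7, 6.55 and 7.20 in P5 KO, and 2.84, 4.34 and 0.977 in P5 wt. P5 KO was higher than P5 wt without overlap, yet the difference of 1.46 (SE 0.59) did not pass (adjusted p = 0.287). The 1.5M KO libraries disagreed with each other, and their contrast with 1.5M wt did not pass (1.48, SE 0.59, adjusted p = 0.199), though it did without 1.5M KO library 3 (adjusted p = 0.0384). Without 1.5M KO library 2, the contrast of 1.5M KO with P5 KO (−1.76, SE 0.59, adjusted p = 0.128) passed at 0.0213. In 1.5M wt Fabp5 was listed at 0 against P5 wt without overlap, and the contrast missed the threshold (−1.78, SE 0.59, adjusted p = 0.09).

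Plin2 encodes perilipin 2, the coat of lipid droplets (chromosome 4, 86626910 to 86670217). It had 1.44, 2.49 and 2.40 in 1.5M KO, 3.69, 2.15 and 1.78 in 1.5M wt, 12.7, 13.1 and 9.60 in P5 KO, and 5.68, 3.25 and 1.95 in P5 wt. P5 KO stood above all 9 other libraries, and the other 3 groups overlapped. Plin2 rose in P5 KO against P5 wt (1.54, SE 0.39, adjusted p = 0.0445), at a mean 3.25 times that of P5 wt. It was called in 7 of 25 alternatives. It was lost without P5 KO library 1 (0.137), 2 (0.121) or 3 (0.0656), without P5 wt library 2 (0.106) or 3 (0.183), and without 5 of the 6 libraries of the other age (0.0535 to 0.0709). Against P5 KO, Plin2 fell in 1.5M KO by 2.05 (SE 0.39, adjusted p = 0.00295), a call lost after thinning to equal depth (0.0581).

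Soat1 encodes the enzyme that esterifies cholesterol for storage (chromosome 1, 156428108 to 156474328). It had 4.08, 1.99 and 1.44 in 1.5M KO, 12, 8.58 and 10.2 in 1.5M wt, 1.82, 2.18 and 1.20 in P5 KO, and 4.26, 5.42 and 0.977 in P5 wt. The 1.5M wt libraries were above all 9 others. Soat1 fell in 1.5M KO against 1.5M wt (−1.75, SE 0.44, adjusted p = 0.018), to a mean 0.244 times that of 1.5M wt. This was lost without 1.5M KO library 2 (0.094) or 3 (0.127) and without 1.5M wt library 1 (0.0875) or 3 (0.065), with a pseudocount of 0.1 (0.0704) and after thinning to equal depth (0.418). The higher level in 1.5M wt than in P5 wt (1.46, SE 0.44) missed the threshold (adjusted p = 0.0562), but passed without P5 wt library 2 (0.037).

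**Figure D2:**
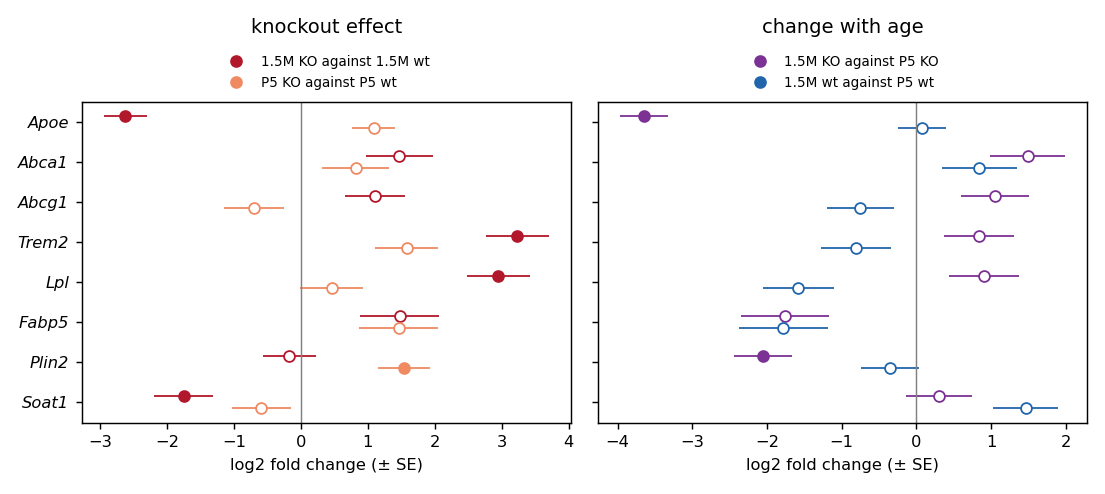
Log2 fold change and its SE (horizontal axes) for the 8 tested genes (vertical axis), with the knockout effect at each age on the left and the change with age in each genotype on the right. Filled points passed an adjusted p of 0.05. Apoe has −2.62 in 1.5M KO against 1.5M wt and 1.09 in P5 KO against P5 wt.

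Set side by side, the knockout at 1.5M had 4 of the 8 tested genes called, with Trem2 and Lpl higher and Apoe and Soat1 lower, where 5.28% of all genes tested were called, 3.24% higher and 2.04% lower. Groups did not overlap for 6 of the 8, against 21.1% of all genes: 4 were higher, against 13.9%, and 2 lower, against 7.18%. The median log2 fold change over the 8 was 1.29, beside 0.09 over all genes. At P5 1 of the 8, Plin2, was called, higher in KO, against 1.80% of all genes, 1.15% higher and 0.649% lower. Without overlap, 4 were higher, against 6.23%, and 0 lower, against 6.02%, in all 4 of 8 against 12.2%. Those 4 are Apoe, Trem2, Plin2 and Fabp5, and 4 of the 8 had an unadjusted p under 0.05, against 12.8% of all genes. The median there was 0.96, beside −0.01 over all genes. These comparisons share groups with those of age below.

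With age, 0 of the 8 were called in 1.5M wt against P5 wt by limma, against 5.21% of all genes, 2.36% higher and 2.84% lower, with 3 (Lpl, Fabp5 and Soat1) at an unadjusted p under 0.05, against 18.2%, and 3 called by voom, against 6.36%. Without overlap, Soat1 was higher, against 6.06% of all genes, and Abcg1, Lpl and Fabp5 were lower, against 13.2%, together 4 of 8 against 19.2%. In the knockout, Apoe and Plin2 were called lower in 1.5M KO against P5 KO, where 3.14% of all genes were called, 1.72% higher and 1.43% lower. Without overlap, Abca1 and Abcg1 were higher, against 8.15%, and Apoe and Plin2 lower, against 10%, together 4 of 8 against 18.1%. The difference of the knockout effect between the ages was called for Apoe alone of the 8, against 2.0% of all genes, 1.32% with a higher and 0.678% with a lower effect at 1.5M. At an unadjusted p under 0.05 there were 5 of the 8 (Apoe, Abcg1, Lpl, Trem2 and Plin2), against 13.3% of all genes.

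Markers of other cells moved with these results. In 1.5M KO the 13 macrophage markers in the table, of 14 listed, summed to between 468 and 516 scaled counts, against 7.11 to 12.9 in 1.5M wt, with 10 of them counted in 1.5M KO and 4 in 1.5M wt, and Mrc1, Cx3cr1 and Cybb at 0 in 1.5M wt. C1qa, C1qb and C1qc made up much of the sum, averaging 113, 88.9 and 143 in 1.5M KO. Lyve1, Mertk and Folr2 were at 0 in 1.5M KO. The 9 monocyte markers summed to 15.3 to 23.6 in 1.5M KO and 1.43 to 7.55 in 1.5M wt. The 10 dermal or conventional dendritic cell markers summed to 17 to 24.1 in 1.5M KO and 6.45 to 14.8 in 1.5M wt. The 10 Langerhans cell markers summed to 35.8 to 51.3 in 1.5M KO and to 391 to 485 in 1.5M wt. At P5 the macrophage markers summed to 105 to 152 in KO and 103 to 131 in wt, but single markers differed without overlap. Higher in P5 KO than in P5 wt were Cybb (22.5 to 38.4 against 11.7 to 17.4), Cx3cr1 (6.36 to 12 against 0.977 to 2.84), Fcgr1 (5.09 to 6.36 against 0 to 2.13) and Cd163 (1.45 to 6 against 0 to 1.42). Lower were C1qa (15.3 to 22.8 against 27 to 34.7) and Cd68 (1.2 to 3.64 against 3.91 to 4.97). The Langerhans cell markers summed at P5 to 13.2 to 20.4 in KO, with Cd207 at 0, and 62.9 to 79.1 in wt. At both ages the Langerhans cell marker sums of KO lay below those of wt without overlap. Their part in the changes of Apoe, Trem2, Lpl and Soat1 was not tested. The 1.5M KO libraries were also deeper. After thinning all libraries to equal depth by a random draw, not repeated, Apoe (−2.73, adjusted p = 0.00227), Trem2 (3.34, adjusted p = 0.00149) and Lpl (2.69, adjusted p = 0.00788) were still called in limma. Soat1 was no longer called in that draw (−1.19, adjusted p = 0.418).

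**Figure D3:**
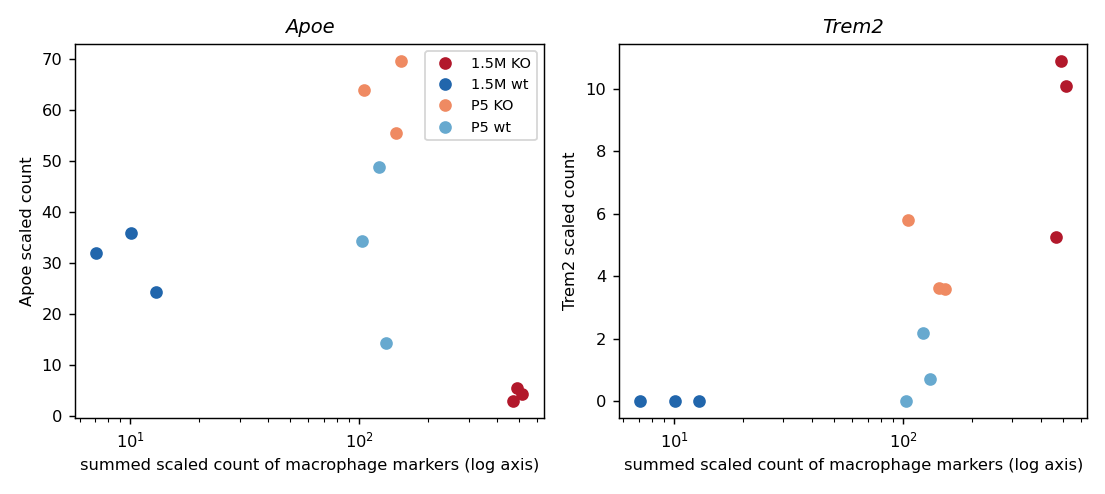
Scaled count of Apoe (left) and Trem2 (right) on the vertical axis against the summed scaled count of 13 macrophage markers (log axis), 1 point per library. The 1.5M KO libraries have the highest marker sums, 468 to 516, with the lowest Apoe and, in 2 of 3, the highest Trem2.

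At P5 further marker lists differed, and the monocyte markers did so at both ages. All 17 keratinocyte markers were in the table and summed to 250 to 755 in P5 KO and 73.3 to 109 in P5 wt, with library 1 of P5 KO the highest. The 8 neutrophil markers in the table, of 9 listed, summed to 47.0 to 247 in P5 KO and 3.02 to 10.3 in P5 wt, and the 9 monocyte markers to 42.2 to 68.4 in P5 KO and 5.86 to 14.1 in P5 wt. The 6 erythroid markers in the table, of 8, summed to 0.396 to 234 in P5 KO and 0 to 2.84 in P5 wt. All 8 adipocyte markers were at 0 in P5 KO, among them Adipoq and Plin1, and 5 of 9 sebocyte markers were. The part of these cells in the Plin2 call and in the higher Apoe, Trem2 and Fabp5 of P5 KO was not tested.

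Of 117 other genes on 9 lists, of lipid handling and Trem2 signalling, 73 were tested. In 1.5M KO against 1.5M wt, 8 were higher and 1 lower, in all 12.3%. In P5 KO against P5 wt 3 were higher and 3 lower (8.22%), in 1.5M wt against P5 wt 1 and 8 (12.3%), and in 1.5M KO against P5 KO 2 and 1 (4.11%). The shares for all genes are those given above.

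Of the uptake receptors, 3 of 8 tested genes were higher and 0 lower in 1.5M KO against 1.5M wt, with a median of 0.65. Lrp1, an endocytic receptor for Apoe-bearing particles, had 22.5, 23.4 and 27.8 in 1.5M KO against 0, 0.715 and 0.888 in 1.5M wt (log2 fold change 4.11, SE 0.42, adjusted p = 4.86e-07). The scavenger receptors Cd36, at 9.89 ± 1.91, and Msr1, at 6.15 ± 0.766 (SD, n = 3), were at 0 in 1.5M wt, and so at least 11.9-fold and 7.4-fold higher in 1.5M KO. Lrp1 fell in 1.5M wt against P5 wt (−1.72, SE 0.42, adjusted p = 0.017), and its knockout effect differed between the ages (2.96, SE 0.60, adjusted p = 0.00707). At P5 Cd36 alone of this list was called, at 11.9 ± 6.09 in P5 KO and 2.80 ± 1.28 in P5 wt (adjusted p = 0.0356). Cd36 fell in 1.5M wt against P5 wt as well, together with Lrp1.

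Lysosomal genes of lipid release had 3 of 11 higher in 1.5M KO and 0 lower, with a median of 1.04. Psap, the precursor of the saposins, averaged 78.4 ± 9.81 in 1.5M KO and 20.9 ± 3.82 in 1.5M wt, and it rose at P5 as well, to 117 ± 17.2 in P5 KO against 54.1 ± 15.8 in P5 wt (1.13, SE 0.20, adjusted p = 0.00456). Npc2, which hands cholesterol over for exit from the lysosome, rose to 22.1 ± 2.91 in 1.5M KO against 7.52 ± 0.671 in 1.5M wt (1.44, SE 0.23, adjusted p = 0.000252). It fell in wild type with age, to that level against 23.9 ± 3.99 in P5 wt (−1.54, SE 0.23, adjusted p = 0.000151). Lamp2, a lysosomal membrane protein, rose to 12.6 ± 3.56 in 1.5M KO against 3.63 ± 1.88 in 1.5M wt (adjusted p = 0.00627; all SD, n = 3).

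Among liver X receptor partners and targets, 1 of 14 was called at each age. Pltp, the phospholipid transfer protein, rose to 11.5 ± 2.96 in 1.5M KO against 0.477 ± 0.826 in 1.5M wt (3.19, SE 0.47, adjusted p = 7.9e-05). Arl4c, a small GTPase, fell in P5 KO to 7.59 ± 5.35 against 19.1 ± 3.14 in P5 wt (−1.44, SE 0.35, adjusted p = 0.0392). With age in the knockout it was higher, at 19.9 ± 4.85 in 1.5M KO against P5 KO (1.48, SE 0.35, adjusted p = 0.0196). The median over these 14 was −0.15 at 1.5M and −0.19 at P5.

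In the list of droplet and ester turnover, 0 of 11 were called by limma in 1.5M KO against 1.5M wt, with 3 at an unadjusted p under 0.05, against 14.9% of all genes. At P5 1 was higher, G0s2, and 1 lower, Nceh1. Nceh1, which hydrolyses cholesteryl esters, had 0.908, 0 and 1.20 in P5 KO against 14.8, 12.3 and 4.88 in P5 wt (−2.73, SE 0.41, adjusted p = 0.000658), and rose in 1.5M KO to 4.85 ± 1.71 against 0.703 ± 0.626 in P5 KO (1.82, SE 0.41, adjusted p = 0.0137). G0s2, an inhibitor of triglyceride lipase, was at 0 in 1.5M KO against 7.67 ± 5.20 in P5 KO, at least 15.8-fold lower.

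Of fatty acid genes, Acsl5, which activates long-chain fatty acids, fell to 1.95 ± 0.858 in 1.5M KO against 16.6 ± 7.67 in 1.5M wt (−2.53, SE 0.52, adjusted p = 0.00313), the 1 call among 9 tested. It rose with age in wild type, being 2.32 ± 0.463 in P5 wt (2.32, SE 0.52, adjusted p = 0.00845). Cpt1a, which brings fatty acids into mitochondria, fell to 0.614 ± 1.06 in 1.5M wt against 3.93 ± 0.394 in P5 wt (−1.80, adjusted p = 0.0248).

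**Figure D4:**
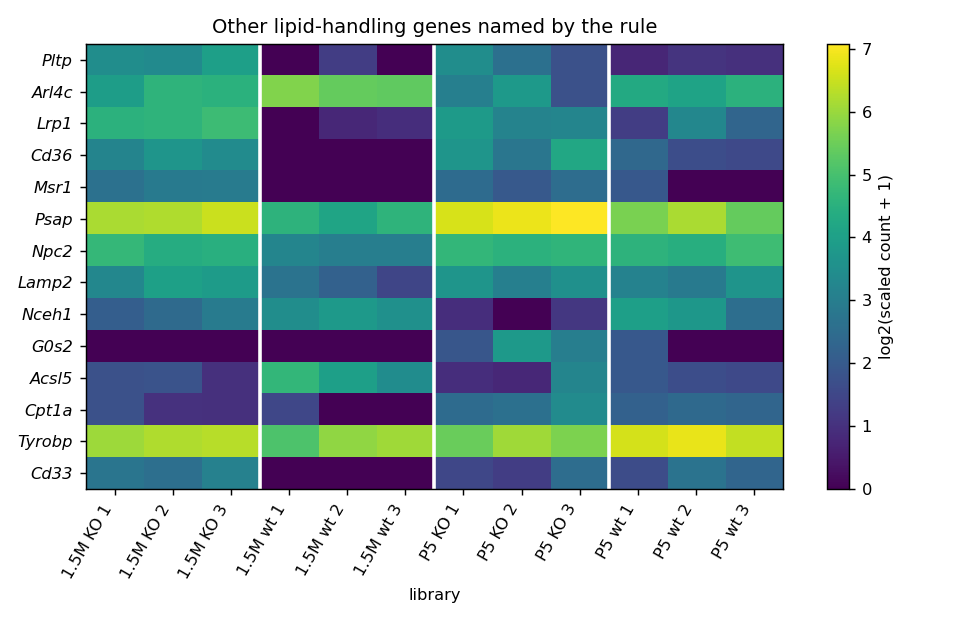
Colour gives log2(scaled count + 1) of the 14 genes named by the rule from the other lists, of lipid handling and Trem2 signalling (rows), in each of the 12 libraries (columns). Lrp1, Cd36, Msr1, Pltp and Cd33 are at or near 0 in 1.5M wt and counted in every library of 1.5M KO, and Acsl5 has its highest values, 9.77 to 24.9, in 1.5M wt.

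Trem2 signals through the adaptor encoded by Tyrobp, which had 72.5 ± 7.22 in KO and 52.5 ± 17.1 in wt at 1.5M, and 52.8 ± 11.6 in KO and 98.6 ± 13.9 in wt at P5 (SD, n = 3). Tyrobp fell in P5 KO against P5 wt (−0.90, SE 0.22, adjusted p = 0.0343) and in 1.5M wt against P5 wt (−0.94, SE 0.22, adjusted p = 0.00998). Its knockout effect differed between the ages (1.41, SE 0.31, adjusted p = 0.0121). Cd33 rose in 1.5M KO to 6.13 ± 1.39, with 0 in all of 1.5M wt (2.82, SE 0.44, adjusted p = 0.000186), and was at least 7.37-fold higher. The lists of lipase cofactors (3 tested), other apolipoproteins (3) and other ABC transporters (7) had 0 genes called by limma in either knockout comparison. At an unadjusted p under 0.05 the first and second of these lists had 0 in both, and the ABC transporters 1 of 7 at 1.5M, against 14.9% of all genes, and 3 of 7 at P5, against 12.8%.

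By likeness of pattern (Pearson's r of log2 values over the 12 libraries, among 5004 genes at or above the median by mean value), Trem2 was closest to Cd14 (r = 0.98), Cx3cr1 (0.96) and Socs3 (0.93). For Lpl, Lrp1 (0.96) and Rasa4 (0.94) were among the closest. Plin2 was closest to 2010005H15Rik (0.96), Ccl6 (0.95) and Stfa2l1 (0.93), which averaged 14.5, 24.7 and 17.9 in P5 KO and 1.18, 3.91 and 0.891 in P5 wt. Apoe was closest to Tomm20 (0.87), Srrm2, Pou2f1, Kremen2 and Arrdc4 (0.86 each). Soat1 was nearest to Rab6a (0.93), Dennd4a (0.90) and Isca1 (0.89), and Fabp5 to the cornification gene Lor (0.86), Lsm11 and D1Ertd622e (0.85 each). Abca1 was nearest to Rap2a, Runx3 and Itgb2 (0.84 each), and Abcg1 to Asnsd1 (0.85), Pmpca (0.84) and Pip4k2a (0.83). The libraries fall into 4 groups, and those of 1.5M KO are the deepest, so these values describe the pattern of the groups and carry no test.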

How the data were processed

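RNA of 100 sorted cells per tube was reverse transcribed with barcoded oligo-dT primers after ERCC spike-in, per the labels' protocols. Per the submitters' processing notes, TopHat2 and mm10 were used. How molecules were counted and scaled, the annotation and the use of strand are not given in the sources used here. In the authors' deposited table each symbol has a signal, and library totals are equal. Of the values above 0, 92.6% to 94.9% per library were whole multiples (tolerance 0.01) of 1 step, taken as 1 molecule, so molecule numbers are approximate and no count model was the main test. Lpl, Soat1 and Nceh1 had fractional molecules in 2 libraries each.

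Values were analysed as log2(scaled count + 1), which understates the change of low genes, for 10023 genes above 0 in at least 3 of 12 libraries. One limma 3.58.1 fit (R 4.3.3) of 4 group means with a trend of variance on mean level and no other term gave 5 comparisons, two-sided, with Benjamini-Hochberg adjustment over all genes and a threshold of 0.05. The procedure was tested on simulated data. No pairing of the libraries by replicate number was seen. The members and gene lists were chosen with earlier results of these data known. Other listed genes were named if called, without overlap, and with a mean of at least 3 in the higher group, up to 4 per list and comparison. Alternatives varied the pseudocount, filter, scaling, depth, model, block and libraries. Thinning to equal depth was a random draw of molecules down to the lowest library total, not repeated. One gene named by the rule of likeness is not reported here.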

Additional observations from a re-analysis of the deposited data

Results flagged for a closer look

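Apoe was picked out because its knockout effect differed between the 2 ages. The difference was −3.71 on the log2 scale (SE 0.45, adjusted p = 2.59e-05 by limma), from 4.22 ± 1.30 in 1.5M KO against 30.7 ± 5.90 in 1.5M wt and 63.0 ± 7.15 in P5 KO against 32.4 ± 17.4 in P5 wt (SD, n = 3 each). It passed the threshold in all 23 alternatives that could be run, with values between −4.08 and −2.38. At P5 the knockout difference did not itself pass, and the keratinocyte, neutrophil and monocyte markers given above were higher in P5 KO. Their part was not tested.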

How the results depend on the processing

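Over 40 gene and comparison pairs and 984 alternative values, 907 kept direction and side of the threshold, 25 lost the call, 37 gained one and 15 turned sign. Apoe, Trem2 and Lpl at 1.5M and Apoe in 1.5M KO against P5 KO stayed called in all 25 alternatives each. In P5 KO against P5 wt the count of called genes was 0 with a pseudocount of 0.1, no filter, thinning, no trend, array weights or the replicate block, and 2 with a filter of 6 libraries. It was 2 with only its 6 libraries and 0 when genes at 0 in all of them were kept, a setting chosen after seeing the data. In 1.5M wt against P5 wt the count was 1 with a pseudocount of 10, median-of-ratios or quantile scaling, no trend or the replicate block, 2 with a pseudocount of 0.1, and 3 by voom or the filter of 6 libraries. In 1.5M KO against P5 KO it was 1 after thinning and 3 with a pseudocount of 10, the filter of 6 or voom. In 1.5M KO against 1.5M wt it was 3 with a pseudocount of 0.1 or thinning, and 5 with a pseudocount of 10, array weights or only its 6 libraries. The difference between knockout effects had 2 with a pseudocount of 0.1 or 10, the filter of 6, voom or no trend. Leaving out 1 library gave 0 to 1, 0 to 1, 2 to 3 and 1 to 2 in these comparisons, and 3 to 4 in 1.5M KO against 1.5M wt. The cause was not tested.

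None of the values that turned sign was called. Fabp5 in the difference between knockout effects (0.02) was −0.21 with a pseudocount of 10, −0.00059 by median-of-ratios, −0.044 by quantile scaling and −0.11 after thinning, and −0.82 to 0.76 leaving out 1 library. Abca1 there (0.65) was −0.60 with a pseudocount of 0.1. Apoe in 1.5M wt against P5 wt was −0.13 by quantile scaling and −0.42 to 0.44 leaving out 1 library. Plin2 in 1.5M KO against 1.5M wt ranged from −0.32 to 0.053, and Soat1 in 1.5M KO against P5 KO from −0.0014 to 0.53. Quantile scaling moved the median of all genes from −0.22 to −0.062 in 1.5M wt against P5 wt. Same-numbered libraries correlated at −0.017 to 0.023 in 18 pairs, and the others at −0.02 to 0.023 in 36. No pairing by number was seen, but counting error adds to every value, so the check cannot exclude one. With 3 molecules as the limit of detection, Nr1h3 and most values of Abca1 and Abcg1 rest on few molecules.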

Other observations

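A few low genes outside the naming rule stood out after their values were seen. Trem1, a receptor that amplifies inflammation and is expressed on neutrophils and monocytes, was counted at 2.41 ± 2.09 in P5 KO (SD, n = 3) and at 0 in the other 9 libraries, at least 2.69-fold higher than in P5 wt. The Trem1 value rested on 7 molecules in 2 of the 3 P5 KO libraries. The P5 groups overlapped at 0, and Trem1 was above 0 in too few libraries to be tested. Mgll, which encodes monoacylglycerol lipase, was at 0 in 1.5M KO against 1.91 ± 0.895 in 1.5M wt, at least 3.94-fold lower, and its limma contrast did not pass (adjusted p = 0.098). Apoc1, the neighbour of Apoe in the genome, averaged 2.36 ± 3.48 in P5 KO and 0.237 ± 0.41 in P5 wt, from 8 molecules and 1 molecule. Of the 8, 7 were in P5 KO library 1, which had 6.36, while the other libraries of that group had 0.727 and 0.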
